A study of Homo sapiens with 8 samples.

Results

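The genes described are 48 genes of the G1/S transition and DNA replication in the human breast cancer line MDA-MB-231, measured with and without TGFβ. They were taken from a list of named genes, and each was read from the probe set with the highest mean signal among those that the array annotation gives to that gene alone. All 48 listed genes were found among 19775 genes with such a probe set. MDA-MB-231 is a mesenchymal-like line from a metastatic breast tumour and carries mutant p53. The cells stably expressed a retroviral hairpin against GFP, a control that leaves p53 in place, and whether they were 1 clone is not stated. All cells were kept without serum for 24 h. The untreated group had 4 arrays and the TGFβ group had 4, the latter given 5 µg/ml TGFβ for 3 h, a dose and unit that stand as the labels give them. Both groups carry the replicate letters A to D. Arrays of p53-depleted cells, which the series also describes, were not analysed here.

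Cells enter S phase when cyclin-dependent kinases inactivate the retinoblastoma family of pocket proteins, which frees E2F factors to transcribe the cyclin E, origin licensing, polymerase and nucleotide synthesis genes. TGFβ is known for holding epithelial cells in G1, through inhibitors of these kinases and loss of MYC, and many carcinoma lines have lost that arrest while keeping other TGFβ responses. The 48 genes fall into 5 classes, namely 8 E2F factors and pocket proteins, 6 cyclin E, kinase and CDC25A genes, 17 genes of origin licensing and firing, 12 of polymerases, clamp and fork, and 5 of nucleotide supply together with UHRF1.

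Signals are RMA values, which lie on a log2 scale, so that a difference of 1 is a 2-fold change. The median array signal lay between 4.63 and 4.66 on all 8 arrays. Known immediate TGFβ targets responded, with log2 differences of 1.81 for SMAD7, 2.24 for PMEPA1 and 1.64 for JUNB, each past the threshold in limma, whereas SKIL at 1.41 was not (adjusted p = 0.157). The mesenchymal markers VIM (13.55 to 13.81) and CD44 (10.90 to 11.98) were high, and the 5 genes of that list averaged 11.29 to 11.77. The 6 luminal markers averaged 5.22 to 5.52; ESR1 stayed between 5.66 and 5.91, while EPCAM read 8.16 to 8.52 and GATA3 6.92 to 7.76. CDH1, low in untreated cells (3.93 to 4.19), rose by 0.90 with TGFβ, higher in 4 of 4 letters (adjusted p = 0.00579). Fibroblast and leukocyte marker lists had mean levels of 4.30 to 4.57 and 4.83 to 5.15. The highest gene of each list was PDGFRB (5.46 to 6.05) and LYZ (5.97 to 7.15). On treated replicate A the 3′ probes of the ACTB control exceeded the 5′ probes by 1.68 log2 units, against 0.63 to 0.89 on the other 7 arrays, and those of GAPDH by 0.54 against 0.06 to 0.14. The part of this 3′ excess in the results below was not tested. The labels name biological replicates but not separate cultures, so p-values measure the spread among these arrays only.

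After 3 h of TGFβ none of the 48 genes passed an adjusted p of 0.05 in limma, where 114 of 19775 genes passed (0.576% of genes). At an unadjusted p of 0.05, 3 of the 48 passed, 2 higher and 1 lower, against 8.14% of all genes. These were E2F7 and RFC5, higher, and CDC7, lower. By sign alone 41 of the 48 genes were lower with TGFβ (85.4%, against 47.2% of all genes). The size of this shift was small, with a median log2 difference of -0.09 over the 48 genes and 0.01 over all genes, and a range of -0.49 to 0.47. The mean was -0.11. With letter B, low in both groups, left out as a pair it was -0.09, whereas leaving out 1 B array gave -0.20 (untreated) or 0.01 (treated). Of a list of 22 mitosis genes, 21 were lower by sign (95.5%), with a median of -0.26, and none passed in limma, with 4 at an unadjusted p under 0.05. Of the 48 confidence intervals (95%), 47 lay within a 2-fold change in either direction and 28 within 1.5-fold. Of all 19775 genes, 19334 had intervals within 2-fold and 17137 within 1.5-fold, the latter a larger share than in the 48. The groups did not overlap in 1 gene, RFC5, while 5.12% of all genes had groups without overlap.

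**Figure D1:**
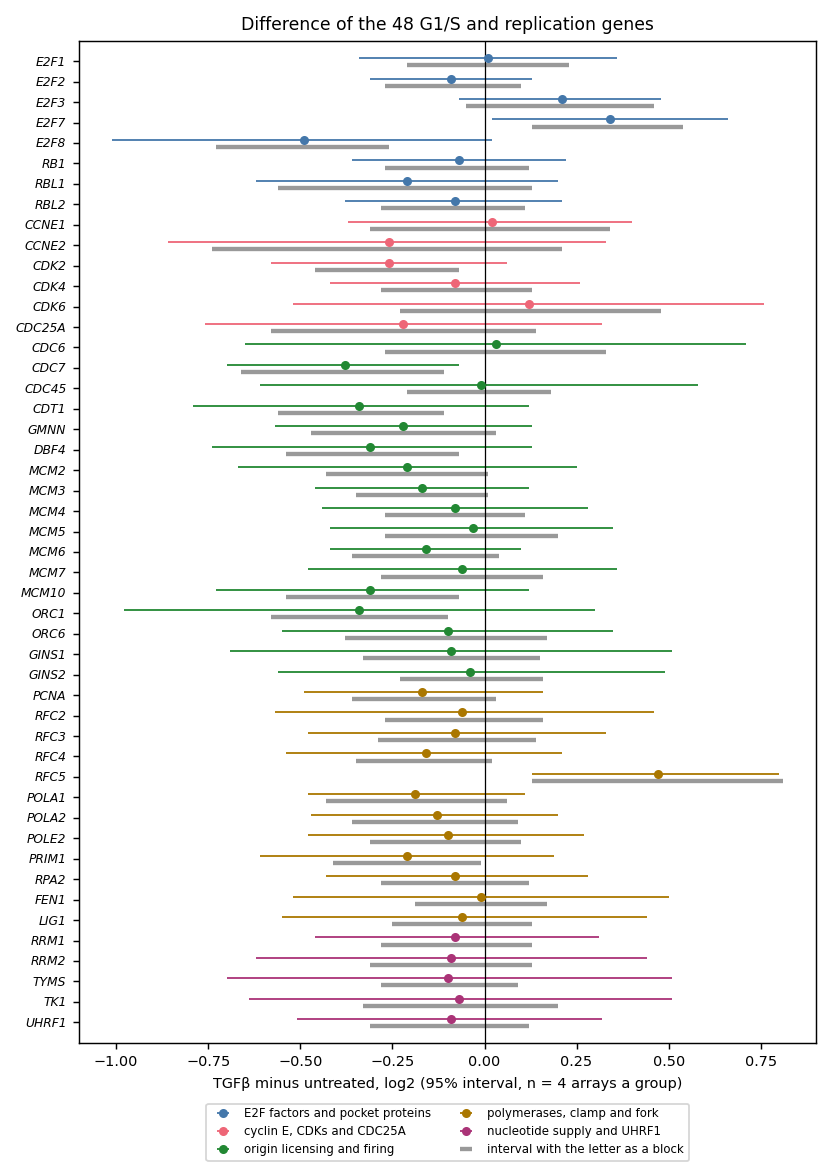
Log2 difference between the TGFβ and untreated groups (x axis) for each of the 48 genes, coloured by class; points are the difference of group means with 95% intervals from limma (n = 4 arrays a group), and grey bars are the intervals with the replicate letter as a block. Most points lie just left of 0, and with the block 8 intervals lie below 0 and 2 above it.

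The replicate letter accounted for much of the spread, and taking it as a block narrowed the intervals. The median standard error of the 48 differences was 0.18 without the block and 0.10 with it. With the block 1 gene, E2F8, fell past the adjusted threshold, while 3.57% of all genes passed that fit. At an unadjusted p of 0.05 the block fit had 10 of the 48 genes, 8 lower and 2 higher, against 15.3% of all genes. All 4 same-letter differences were negative in 10 of the 48 genes (20.83%, against 10.69% of all genes) and positive in 2. Of the 22 mitosis genes, the block fit called 1, lower, and 14 had an unadjusted p under 0.05, all lower. All 4 same-letter differences were negative in 15 of these 22 (68.18%), a larger share than in the 48 genes.

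Among the E2F factors and pocket proteins, the atypical repressors E2F7 and E2F8 had differences of opposite sign. E2F8, a repressor of E2F target genes that is itself such a target, read 6.13, 5.97, 6.57 and 6.51 on the untreated arrays A to D and 5.73, 5.15, 6.37 and 5.95 on the treated ones. Each treated array was below its untreated partner, by 0.20 to 0.82, but the groups overlapped, with letters C and D above A and B in both. The difference was -0.49 ± 0.23 (SE, adjusted p = 0.652), or 1.41-fold lower, and with the block its standard error was 0.11 (adjusted p = 0.0316). Over 19 alternative settings the adjusted p of E2F8 ran from 0.0167 to 0.919, and it passed in 3, all with the block. The gene has 1 probe set.

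E2F7, the other repressor, read 10.10, 10.30, 9.93 and 10.07 on the untreated arrays A to D and 10.25, 10.85, 10.24 and 10.40 on the treated ones. Every treated array was above its partner, and letter B was highest in both groups, with untreated B at 10.30 above treated A and C. The difference of 0.34 ± 0.14 did not pass (adjusted p = 0.562 without the block and 0.0838 with it). A second probe set of E2F7 differed by only 0.09, with letter A at -0.08. E2F3, an activator, read 8.07, 8.05, 8.20 and 8.12 on the untreated arrays A to D and 8.62, 8.42, 8.04 and 8.20 on the treated ones. Treated A and B were the highest arrays and C went the other way, and the difference was 0.21 ± 0.12 (adjusted p = 0.777). E2F1, the textbook activator, gave 7.14, 6.75, 7.06 and 6.69 on the untreated arrays A to D and 7.06, 6.51, 7.18 and 6.92 on the treated ones. Letters A and B were lower and C and D higher with TGFβ, so the groups overlapped throughout and the mean difference was 0.01 ± 0.16, a sign that turned to -0.01 when arrays were centred on their medians. E2F2 stood at -0.09, RB1 at -0.07 and RBL2, the pocket protein of quiescent cells, at -0.08. RBL1, the pocket protein most tied to E2F activity, differed by letter: 0.49 higher with TGFβ in A and 0.23, 0.64 and 0.47 lower in B, C and D. A second RBL1 probe set, with a mean signal of 5.26 against 5.48, did not share the rise in letter A. Its differences were -0.63, -0.29, -0.66 and 0.22 in letters A to D.

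In the mean of the cyclin E and kinase class, letter A ran against the other letters, as in CCNE2 and CDC25A but not in CDK2 and CDK4. CCNE2, the cyclin E isoform that activates CDK2 alongside CCNE1, read 5.16, 6.01, 6.61 and 6.32 on the untreated arrays A to D and 5.98, 5.36, 5.89 and 5.81 on the treated ones. Untreated A was the lowest of all 8 arrays, and treated A was the highest treated array. The pooled difference was -0.26 ± 0.27 (adjusted p = 0.898). CCNE1 read 6.52, 6.76, 6.93 and 6.89 on the untreated arrays A to D and 7.16, 6.32, 7.0 and 6.69 on the treated ones. It was 0.63 higher with TGFβ in letter A, 0.44 lower in B and close to level in C, which left a mean of 0.02 ± 0.17 (adjusted p = 0.994). CDC25A, the phosphatase that removes inhibitory marks from CDK2, read 7.28, 6.91, 7.32 and 7.78 on the untreated arrays A to D and 7.72, 6.51, 7.19 and 6.97 on the treated ones. It too was higher with TGFβ in A, by 0.44, and lower in the other letters, by up to 0.81 in D, for a pooled -0.22 ± 0.24 (adjusted p = 0.908). Of its 3 probe sets 2 shared the pooled direction. The probe set that did not, with a mean of 5.17, differed by -0.25, -0.22, 0.11 and 0.40 in letters A to D.

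CDK2, the kinase that cyclin E activates, was the gene of this class with the smallest p. Its signals were 7.93, 7.50, 7.59 and 7.92 on the untreated arrays A to D and 7.62, 7.13, 7.53 and 7.61 on the treated ones. All 4 letters were lower with TGFβ, by 0.06 to 0.37, and the groups overlapped. The difference of -0.26 ± 0.14 did not pass (adjusted p = 0.737, and 0.164 with the block), and 2 of its 3 probe sets shared the direction. The D-cyclin partners CDK4 and CDK6 differed by -0.08 and 0.12. As a class these 6 genes had a mean difference of 0.36 in letter A against -0.30, -0.16 and -0.36 in B, C and D.

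Origin licensing and firing was the class with the lowest mean difference, -0.17, and 16 of its 17 genes were lower by sign. The mean was -0.15 with letter B left out as a pair, and -0.30 or -0.01 with only its untreated or treated array left out. Letter A stood nearest to 0, at -0.04, with B, C and D at -0.23, -0.16 and -0.24. CDC7, the catalytic subunit of the kinase that fires origins, read 7.24, 7.39, 7.33 and 7.26 on the untreated arrays A to D and 7.38, 6.84, 6.75 and 6.72 on the treated ones. The untreated arrays lay between 7.24 and 7.39, treated B, C and D lay below all of them, and treated A alone lay among them. The difference was -0.38 ± 0.14 (adjusted p = 0.446). Without treated replicate A it was -0.54 ± 0.09 and CDC7 was the 1 gene of the 48 that passed (adjusted p = 0.029), in a fit that called 1.17% of all genes; over the 19 settings its adjusted p ran from 0.00318 to 0.878. DBF4, the activating partner of CDC7, had a difference of -0.31 ± 0.20 and was level in letter A and lower in the other letters.

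CDT1, which loads the MCM helicase on origins together with CDC6, read 6.75, 6.58, 7.15 and 7.13 on the untreated arrays A to D and 6.66, 5.96, 6.94 and 6.70 on the treated ones. Every letter was lower with TGFβ, least in A (0.09) and most in B (0.62), and the groups overlapped. The difference was -0.34 ± 0.21 (adjusted p = 0.779 without the block and 0.118 with it). MCM10, a factor of helicase activation, read 6.85, 6.48, 7.01 and 7.33 on the untreated arrays A to D and 6.86, 6.17, 6.70 and 6.71 on the treated ones. Letter A was level and B, C and D were lower by 0.30 to 0.63, giving -0.31 ± 0.19 (adjusted p = 0.788). GMNN, the inhibitor of CDT1, differed by -0.22 ± 0.16. CDC6, the partner of CDT1 in loading, read 7.68, 6.87, 8.25 and 8.21 on the untreated arrays A to D and 7.34, 7.45, 8.07 and 8.26 on the treated ones. The untreated arrays alone ran from 6.87 in letter B to 8.25 in letter C, and the difference was 0.03 ± 0.31 (adjusted p = 0.994). MCM2, a helicase subunit, read 9.07, 8.47, 9.08 and 8.94 on the untreated arrays A to D and 8.69, 8.08, 9.08 and 8.88 on the treated ones. Letters A and B were lower by 0.38 and 0.39 and C and D nearly level, giving -0.21 ± 0.21 (adjusted p = 0.894). The other 5 subunits of the MCM ring lay between -0.17 and -0.03, and ORC1, ORC6, GINS1, GINS2 and CDC45 between -0.34 and -0.01.

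Polymerase, clamp and fork genes had a mean difference of -0.06, and 11 of 12 were lower by sign. The exception was RFC5, a subunit of the clamp loader, which read 9.63, 9.08, 9.60 and 9.32 on the untreated arrays A to D and 9.63, 10.17, 9.80 and 9.90 on the treated ones. Treated B was the highest array and untreated B the lowest, and letter A had the same 9.63 in both groups, so that the groups met there without crossing. The difference was 0.47 ± 0.15 (adjusted p = 0.337, and 0.152 with the block). This direction was found in 1 of the 3 probe sets of RFC5; the others differed by 0.00 and -0.17. The RFC5 and WSB2 loci overlap in the RefSeq annotation, the WSB2 probe set differed by 0.13, and which transcript the RFC5 probe set reads was not tested. RFC2, RFC3 and RFC4, the neighbouring loader subunits, lay between -0.16 and -0.06.

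POLA1, the catalytic subunit of the polymerase that extends primers, read 6.49, 6.26, 6.54 and 6.84 on the untreated arrays A to D and 6.59, 6.21, 6.29 and 6.30 on the treated ones. Letter D was lower by 0.53 and A higher by 0.10, and the difference of -0.19 ± 0.13 did not pass. PRIM1, the primase that lays down those primers, read 7.87, 7.33, 8.15 and 7.77 on the untreated arrays A to D and 7.66, 7.17, 7.74 and 7.72 on the treated ones. All 4 letters were lower with TGFβ, by 0.05 to 0.40, and both B arrays lay below the rest; the difference was -0.21 ± 0.18 (adjusted p = 0.867). PCNA, the sliding clamp, read 10.37, 10.05, 10.46 and 10.38 on the untreated arrays A to D and 10.38, 9.74, 10.23 and 10.25 on the treated ones. Letter A was level and the others lower by 0.14 to 0.31, giving -0.17 ± 0.15 (adjusted p = 0.872). POLA2, POLE2, RPA2 (a subunit of the single-strand binding protein), FEN1 (the flap nuclease) and LIG1 (the ligase of the lagging strand) lay between -0.13 and -0.01.

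The nucleotide supply genes and UHRF1 had differences of -0.10 to -0.07, all lower by sign and none past the threshold. RRM2, the small subunit of ribonucleotide reductase, read 9.91, 9.45, 10.32 and 10.21 on the untreated arrays A to D and 10.13, 9.19, 10.06 and 10.14 on the treated ones. RRM1, the large subunit, read 10.10, 9.50, 10.05 and 10.12 on the untreated arrays A to D and 10.22, 9.52, 9.94 and 9.81 on the treated ones. In both subunits letter B was low in both groups and the treatment groups overlapped fully, with differences of -0.09 ± 0.24 and -0.08 ± 0.17. TK1, which salvages thymidine, read 9.28, 8.44, 9.32 and 9.24 on the untreated arrays A to D and 8.75, 8.42, 9.50 and 9.34 on the treated ones. It was lower with TGFβ in letter A, by 0.53, and within 0.19 of level in the other letters, giving -0.07 ± 0.26 (adjusted p = 0.986). UHRF1, which brings maintenance methylation to replicated DNA, read 8.02, 8.01, 8.35 and 8.60 on the untreated arrays A to D and 8.10, 7.68, 8.41 and 8.43 on the treated ones. Letter B was lower by 0.33 and D by 0.18, with A and C slightly higher, giving -0.09 ± 0.19 (adjusted p = 0.963).

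The block fit was also taken with each letter left out in turn, and the count of the 48 that passed was highest without letter A. Over letters B, C and D alone 11 of the 48 genes passed (22.9%, against 6.59% of all genes), 9 lower and 2 higher. CCNE2 fell by 0.62 ± 0.10 (1.54-fold, adjusted p = 0.00171) and CDC7 by 0.56 (adjusted p = 0.00318). E2F8 fell by 0.53, RBL1 by 0.45, CDC25A by 0.44, CDT1 by 0.42, DBF4 and MCM10 by 0.41 each, and GMNN by 0.37, with adjusted p from 0.0167 to 0.046. RFC5 and E2F7 rose by 0.62 and 0.40 (adjusted p = 0.0155 and 0.0305). By class, 5 of the 17 licensing and firing genes, 3 of the 8 E2F and pocket genes, 2 of the 6 cyclin E and kinase genes, 1 of the 12 polymerase genes and none of the 5 nucleotide genes passed by limma; at an unadjusted p of 0.05 none of these 5 passed either. The median over the 48 genes was -0.15. In the same limma fit with each probe set tested on its own, only CCNE2 and CDC7 passed among the 48 genes. The probe sets used here for the other genes named had adjusted p from 0.0711 (E2F8) to 0.131 (CDC25A).

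That result depended on the letter left out. On the probe sets used here CCNE2, RBL1, CDC25A, GMNN and CDC7 ran the other way in letter A, by 0.82, 0.49, 0.44, 0.22 and 0.14. For these genes leaving out letter A by itself favours a call. Leaving out letter C instead left E2F8 alone past the threshold, and leaving out B or D left none of the 48. Calls over all 19775 genes were also fewer in these fits, at 288, 321 and 356 without B, C and D, against 1304 without A. Leaving out letter A removes both the array with the 3′ excess and its untreated partner, whose readings of CCNE2 and RBL1 were the lowest of the 8. In the fits other than the block fit without letter A, CCNE2, RBL1, CDC25A, CDT1, DBF4, MCM10, GMNN, RFC5 and E2F7 did not pass, with adjusted p up to 1.00. In a test added after seeing the data, the TGFβ difference of letter A was set against that of the other letters as a further term of the limma block fit. It called 1 of the 48 genes, CCNE2 (1.44 ± 0.20 higher in A, adjusted p = 0.015), against 0.157% of all genes. At an unadjusted p of 0.05 it had 10 of the 48, against 11.6% of all genes, with RBL1 next at 0.94 ± 0.21 (adjusted p = 0.117).

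**Figure D2:**
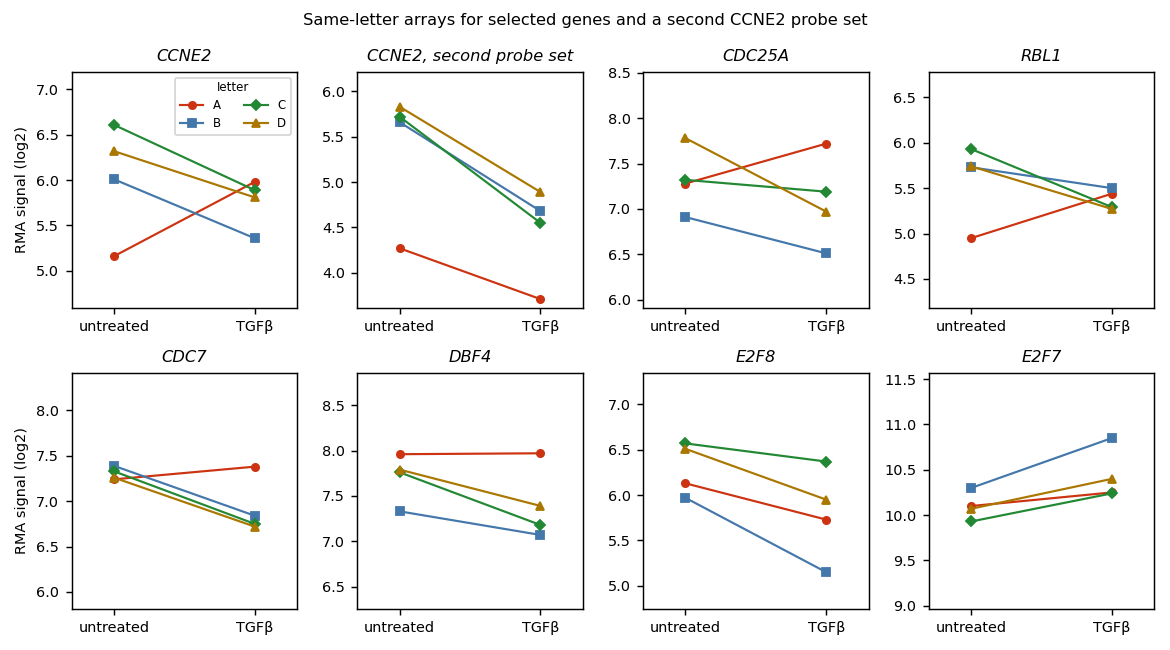
RMA signal (log2, y axis) of untreated and TGFβ arrays, with lines joining arrays of the same replicate letter, for 7 of the 48 genes and a second CCNE2 probe set. The line of letter A slopes up for CCNE2, CDC25A and RBL1 where B, C and D slope down, and all 4 lines slope down for E2F8 and for the second CCNE2 probe set and up for E2F7.

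CCNE2 has a second probe set, picked out after its values were seen. It read 4.27, 5.66, 5.72 and 5.83 on the untreated arrays and 3.71, 4.68, 4.55 and 4.89 on the treated ones. All 4 letters were lower with TGFβ, by 0.55 in A and 0.94 to 1.17 in the others, and its mean signal of 4.92 is close to the array median. The difference was -0.91, and when each probe set was tested on its own it did not pass without the block (adjusted p = 0.579, in a fit that called 0.256% of probe sets), but it passed with it (adjusted p = 0.00454, against 1.75% of probe sets). CCNE2 was the only one of the 48 genes with a probe set past the threshold in that block fit. The 2 probe sets of CCNE2 thus had opposite signs in letter A and the same sign in B, C and D.

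Larger differences than those with TGFβ lay between replicate letters. In an F-test on the 3 letter terms with treatment in the limma model, 25 of the 48 genes passed (52.1%, against 10.2% of all genes), and 38 did at an unadjusted p of 0.05. In 24 of the 25, letter B was lower than the mean of the other letters, a combination found in 5.51% of all genes. The exception was CDK6, 0.86 ± 0.18 higher in letter B (adjusted p = 0.0468). The B array was the lowest of its treatment group, in both groups, for 33 of the 48 genes (68.75%, against 19.62% of all genes). This low level of letter B was known from earlier work on these arrays, so its sizes are given as a description.

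The letter effect was unequal between classes. All 5 genes of nucleotide supply and UHRF1 passed, 11 of the 17 licensing and firing genes, 7 of the 12 polymerase genes, 1 of the 6 cyclin E and kinase genes and 1 of the 8 E2F and pocket genes. Relative to the mean of all genes on the array, letter B lay below the other letters by 0.69 log2 units for nucleotide supply, 0.55 for licensing and 0.45 for polymerases. For cyclin E and kinases it lay 0.18 below, and for E2F and pocket proteins 0.04 above. A list of 22 mitosis genes was also low in letter B, with 16 past the threshold (72.7%) and a level 0.67 lower in B.

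**Figure D3:**
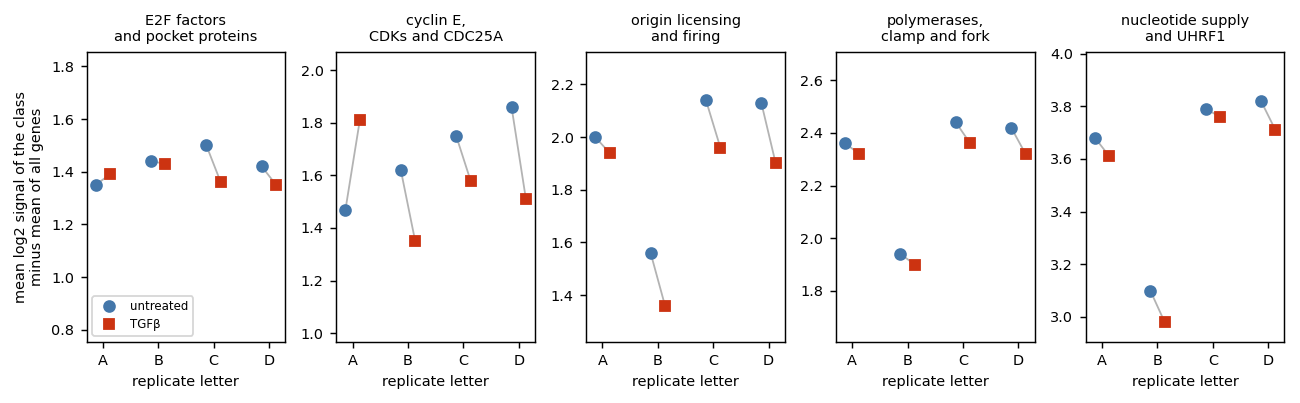
Mean log2 signal of each class minus the mean of all genes on that array (y axis), for untreated (circles) and TGFβ (squares) arrays of each replicate letter (x axis), with a line joining the same letter; the y axes span the same range from different origins. Letter B lies below the other letters in the licensing, polymerase and nucleotide panels, and the TGFβ point of letter A is above its partner in the E2F and the cyclin E panels.

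The 5 genes with the smallest p for the letter show the pattern. TYMS, which makes the thymidine nucleotide, read 11.27, 10.24, 11.04 and 11.12 on the untreated arrays A to D and 11.15, 10.04, 11.10 and 10.99 on the treated ones. CDC45, part of the active helicase, read 7.14, 6.44, 7.36 and 7.29 on the untreated arrays A to D and 7.25, 6.25, 7.40 and 7.29 on the treated ones. FEN1 read 9.84, 9.23, 10.06 and 9.95 on the untreated arrays A to D and 9.90, 9.10, 10.05 and 9.98 on the treated ones. In each of these the 2 B arrays lay apart below the other 6, and arrays of the same letter differed by at most 0.19. ORC1, the origin-binding subunit that is made anew each G1, read 5.49, 4.85, 5.65 and 6.19 on the untreated arrays A to D and 5.30, 4.48, 5.56 and 5.50 on the treated ones. GINS2, another part of the active helicase, read 7.80, 7.29, 8.13 and 8.04 on the untreated arrays A to D and 7.94, 7.10, 8.14 and 7.95 on the treated ones. Letter B was lower than the others by 0.97 ± 0.10 for TYMS, 0.95 ± 0.12 for ORC1, 0.94 ± 0.10 for CDC45, 0.81 ± 0.10 for GINS2 and 0.79 ± 0.10 for FEN1, with adjusted p of 0.00303 to 0.00601 for the letter terms. The TGFβ differences of these genes were -0.34 for ORC1 and -0.10 to -0.01 for the other 4.

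The count depended on single arrays. Without treated B, 1 of the 48 genes passed the letter test, and without untreated B 4 did. Without treated C 11 did. How many of all genes passed in these reduced fits is not given here. The change in count is thus not shown to be particular to the 48 genes. In treated cells the B array read 9.10 for FEN1 against 9.90 to 10.05 on the others, and 10.04 for TYMS against 10.99 to 11.15. Since bulk RNA was measured, fewer cells in S phase and less RNA of these genes per cell cannot be told apart. The labels do not say what a letter stands for.

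**Figure D4:**
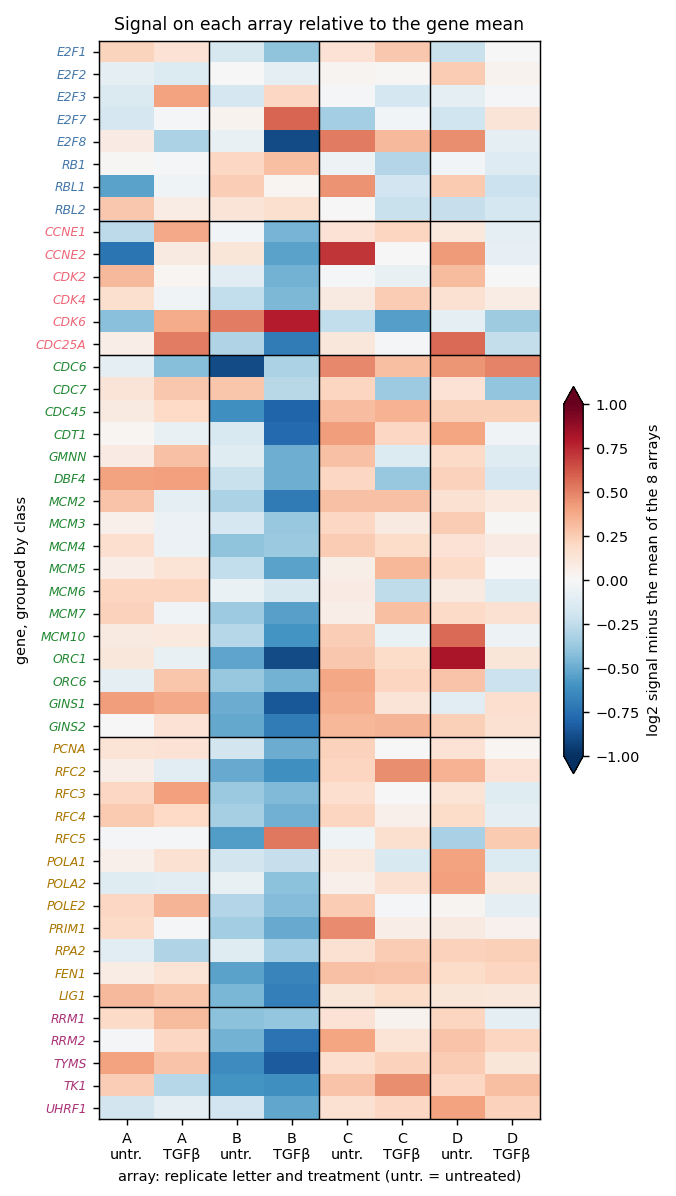
Log2 signal of the 48 genes (rows, grouped and coloured by class) on the 8 arrays (columns, ordered by replicate letter, untreated before TGFβ) minus the mean of the gene over the 8 arrays. The 2 columns of letter B are blue (below the mean) for most licensing, polymerase and nucleotide genes, while CDK6, E2F7 and RB1 are red there.

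Promoter sequences are shown because many of the genes moved together between arrays and E2F factors are the textbook activators of this group. RefSeq promoter windows (GRCh38.p14, 250 bases before to 50 after a start site) were found for 42 of the 48 genes, 56 windows in all; MCM5, MCM4, RPA2, CCNE2, E2F8 and CDK2 had no entry. They were searched on both strands for 4 words of 8 bases that fit the E2F consensus, TTTCCCGC, TTTCGCGC, TTTGCCGC and TTTGGCGC, and words that overlap were each counted. At least 1 word lay in 24 of the 56 windows (42.9%), against 2 of 20 windows of the mitosis list (10.0%) and 3.31% of all 35116 windows. The 6 stretches below run from 100 bases before to 20 bases into the transcript, written on the strand of the gene, with matches in either orientation in capitals; they belong to genes whose values are given above.
CDC6: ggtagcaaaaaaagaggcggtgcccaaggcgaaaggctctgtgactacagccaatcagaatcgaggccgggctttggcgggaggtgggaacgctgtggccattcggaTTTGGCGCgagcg
MCM2: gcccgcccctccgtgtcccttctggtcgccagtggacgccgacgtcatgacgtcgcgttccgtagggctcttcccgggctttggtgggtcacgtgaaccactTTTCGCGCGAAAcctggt
CDT1: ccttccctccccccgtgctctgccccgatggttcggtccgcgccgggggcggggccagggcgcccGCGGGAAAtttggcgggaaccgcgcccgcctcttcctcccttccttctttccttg
UHRF1: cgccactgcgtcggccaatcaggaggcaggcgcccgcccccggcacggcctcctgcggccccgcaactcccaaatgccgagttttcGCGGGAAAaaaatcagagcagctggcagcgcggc
PCNA: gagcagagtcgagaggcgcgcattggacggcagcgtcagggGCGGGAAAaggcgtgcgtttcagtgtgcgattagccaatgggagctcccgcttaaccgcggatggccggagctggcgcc
E2F1: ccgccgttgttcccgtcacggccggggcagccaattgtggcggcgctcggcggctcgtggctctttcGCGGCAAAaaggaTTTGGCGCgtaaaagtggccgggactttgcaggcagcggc

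These stretches lie at chr17:40287779-40287898, plus strand, for CDC6, chr3:127598311-127598430, plus strand, for MCM2, chr16:88803689-88803808, plus strand, for CDT1, and chr19:4909401-4909520, plus strand, for UHRF1. Those of PCNA and E2F1 lie at chr20:5126603-5126722, minus strand, and chr20:33686366-33686485, minus strand. The word of CDC6 starts 8 bases into the transcript, and the overlapping pair of MCM2 at bases 3 and 7. Upstream, the words start at -14 in UHRF1, at -35 in CDT1, at -59 in PCNA and at -33 and -20 in E2F1. Of these 6 genes CDC6, MCM2, CDT1 and UHRF1 passed the letter test (adjusted p = 0.0148, 0.0192, 0.0261 and 0.0329), while PCNA and E2F1 did not (adjusted p = 0.0693 and 0.0871). The 6 were picked by smallest p for the letter among genes with a word and given values. Genes named for their letter effect were not considered. That most of the 6 passed thus follows from the choice and says nothing about the words. The median level of letter B relative to the others was -0.47 in the 23 genes with a word and -0.54 in the 19 without. A match is a description of the letters in the window and not a bound site.

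Outside the 48 genes, 80 further genes of G1/S control and replication were measured, and 2 passed (2.5%, against 0.576% of all genes). CDKN1A, which encodes the p21 inhibitor of cyclin E and CDK2, read 8.68, 9.15, 8.99 and 8.98 on the untreated arrays A to D and 9.70, 10.15, 10.31 and 10.15 on the treated ones. Every treated array lay above every untreated one, and CDKN1A rose by 1.13 ± 0.14 (2.18-fold, adjusted p = 0.0062). CDKN1B, which encodes the related p27 inhibitor, read 9.26, 9.18, 9.35 and 9.33 on the untreated arrays A to D and 8.51, 8.52, 8.59 and 8.70 on the treated ones. All treated arrays lay below all untreated ones, and CDKN1B fell by 0.70 ± 0.09 (1.62-fold, adjusted p = 0.00617). Thus of these related inhibitors of CDK2 one rose and the other fell. CDKN1A passed in all 18 alternative settings that measured it and CDKN1B in all 19. Of the remaining 78 genes, none passed in limma without the block; 10 of the 80 had an unadjusted p under 0.05 (12.5%, against 8.14% of all genes).

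With the block 5 of the 80 passed (6.25%, against 3.57% of all genes), among them 3 that fell and did not pass without it. CCND2, a D cyclin, read 6.38, 5.95, 5.40 and 5.67 on the untreated arrays A to D and 6.02, 5.61, 4.77 and 4.95 on the treated ones. Each letter was lower with TGFβ by 0.34 to 0.73 and A was highest in both groups; the block gave a fall of 0.52 ± 0.09 (adjusted p = 0.0147; 0.73 without the block). LIN52, a subunit of the MuvB complex that turns cell cycle genes off in quiescence, read 6.13, 6.12, 6.70 and 6.68 on the untreated arrays A to D and 6.06, 5.57, 6.11 and 6.15 on the treated ones. Letters B, C and D were lower by 0.52 to 0.59 and A by 0.07, a fall of 0.43 ± 0.10 (adjusted p = 0.0494; 0.532 without the block). DNA2, a nuclease of replication forks, read 6.07, 5.89, 6.13 and 6.32 on the untreated arrays A to D and 5.85, 5.37, 5.75 and 5.89 on the treated ones. It was lower in all 4 letters and fell by 0.39 ± 0.09 (adjusted p = 0.0367; 0.414 without the block). Over the alternative settings the adjusted p ran from 0.00537 to 1.00 for CCND2, from 0.00342 to 0.891 for LIN52 and from 0.015 to 0.787 for DNA2. For CCND2, 3 of 4 probe sets shared the direction. The mean of its probe sets gave a difference of -0.16 (adjusted p = 0.836 in limma without the block).

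Other textbook targets of the cytostatic response did not pass. CDKN2B, the kinase inhibitor that TGFβ induces in many epithelial cells, read 4.43, 4.06, 4.31 and 4.05 on the untreated arrays A to D and 4.75, 3.90, 4.24 and 4.10 on the treated ones. All its values lay near or below the array median, and the difference was 0.03 ± 0.17 (adjusted p = 0.989). MYC, which TGFβ represses in such cells, read 11.14, 10.17, 10.38 and 10.49 on the untreated arrays A to D and 10.82, 10.30, 10.54 and 10.45 on the treated ones. Untreated A was the highest array, the groups overlapped, and the difference was -0.02 ± 0.19 (adjusted p = 0.994). CCND1, a D cyclin, read 9.77, 10.15, 9.96 and 10.19 on the untreated arrays A to D and 10.10, 10.10, 9.97 and 10.07 on the treated ones. Its difference was 0.04 ± 0.11, with untreated A the lowest array. The mean of the 2 CCND1 probe sets gave a difference of 0.27 (adjusted p = 0.418 in limma without the block). CCNA2, the cyclin of S phase, read 8.30, 7.69, 8.50 and 8.48 on the untreated arrays A to D and 8.30, 7.46, 8.25 and 8.28 on the treated ones. POLD1, the catalytic subunit of polymerase delta, read 7.04, 6.37, 6.82 and 6.90 on the untreated arrays A to D and 6.81, 6.21, 6.90 and 6.86 on the treated ones. In both genes the B arrays were the lowest of the 8, and the TGFβ differences were -0.17 ± 0.22 and -0.09 ± 0.18. For the 80 genes the median difference was -0.10 and 29 passed the letter test (36.2%, against 10.2% of all genes).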

How the data were processed

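Expression was measured in 8 samples of MDA-MB-231 cells on Affymetrix arrays, from total RNA taken with Trizol and labelled with biotin, per the labels' protocols. Per the submitters' processing notes, the authors used RMA, and the deposited values are log2 signals of probe sets. The version of RMA and the arrays it ran on together are not stated, and the base of the logarithm was inferred from the values (1.68 to 13.92). RMA gives no detection calls and compresses changes near background, and the number of arrays limits the precision.

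Of 54675 probe sets 62 controls were left out, and 41091 name 1 gene, 1801 several and 11721 none in the platform annotation of 2016. RefSeq held 41037 of those identifiers and changed no symbol. The probe set with the highest mean stood for its gene. Groups came from the labels. limma 3.58.1 in R 4.3.3 (lmFit, eBayes, two-sided, Benjamini-Hochberg over 19775 genes, threshold 0.05) compared TGFβ with untreated arrays without a block, and gave the F-test on letter terms beside treatment. Deviations from group means correlated at 0.49, 0.69, 0.34 and 0.30 between same-letter arrays A to D and at 0.33 and 0.31 between C and D across letters. All same-letter values exceed 0.1, so the letters were taken to pair the arrays, although the data do not tell the pairs C and D apart. Class levels have no test. The fits were tested on simulated data. Alternatives were the block, a signal filter, 2 other normalizations, another prior, other probe set rules and omitted arrays or letters. The test of each probe set on its own and that of letter A against the others were added after seeing the data. Figures used matplotlib 3.10.9.

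The 48 genes, their classes and the further lists were chosen with earlier results of these data known. Array values are given for genes past the threshold with or without the block, the 3 genes of each class with the smallest p, 8 textbook genes, the 5 with the smallest p for the letter, the further pathway genes that passed, and CCND1, CCNA2, CDKN2B, MYC and POLD1.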

Additional observations from a re-analysis of the deposited data

Results flagged for a closer look

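In 84 groups of 4 arrays, the lowest or highest array was compared with the rest by Dixon's ratio of gap to range at the 95% level, and 13 groups had an array that stood apart. Chance gives about 1 in 20 groups, and genes that move together are not independent. The groups include 5 genes that were named for their letter effect; without these, 10 of 74 groups had such an array. In all 13 the array was the lowest and belonged to letter B, 11 times treated and 2 times untreated.

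Among treated arrays, replicate B read 7.17 for PRIM1 (7.66 to 7.74 on the other 3), 9.19 for RRM2 (10.06 to 10.14), 10.04 for TYMS (10.99 to 11.15), 6.25 for CDC45 (7.25 to 7.40) and 9.10 for FEN1 (9.90 to 10.05). Of the further pathway genes, treated B read 5.57 for LIN52, 7.46 for CCNA2 and 6.21 for POLD1, each below the other treated arrays. Among untreated arrays, replicate B read 9.50 for RRM1 (10.05 to 10.12) and 8.44 for TK1 (9.24 to 9.32). As class means relative to all genes, treated B stood at 1.36 for origin licensing and firing (1.90 to 1.96 on the others), 1.90 for polymerases, clamp and fork (2.32 to 2.36) and 1.67 for all 48 genes (2.05 to 2.10). What sets letter B apart was not tested.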

How the results depend on the processing

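No adjustment of scale, filter, prior or probe set rule moved the count of the 48 genes past the threshold from 0 without the block. Of the 48, genes that fell numbered 1 with the replicate block, 0 to 1 with 1 array left out (the 1 without treated A), 9 and 1 with the block and without letter A or C, and 1 with the block for single probe sets; genes that rose numbered 2 in the block without letter A. The block changed no other call of the 48 genes. Over all genes the block gave 705 in place of 114, and 1304 without letter A.

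The letter test gave 15 of 37 genes without probe sets marked as shared between transcripts, and 1 to 36 with 1 array left out. The shares of all genes in these fits are not given here. Without the shared probe sets letter B lay at -0.45 for licensing and -0.41 for polymerases. With 1 array left out, mean TGFβ differences ran from -0.20 to 0.01 over the 48 genes, -0.25 to 0.11 for nucleotide supply, -0.30 to -0.01 for licensing and -0.18 to 0.06 for polymerases, the ends being untreated B and treated B. Of the 80 further genes, 4 fell with the block, and 10, 2, 2 and 2 with it and without letter A, B, C or D; 0 rose without the shared probe sets (CDKN1A then lacks one) and 2 in the block without A.

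Signs turned for genes that did not pass. With 1 array left out the differences ran from -0.35 to 0.04 for CCNA2, -0.04 to 0.10 for CCND1, -0.11 to 0.17 for CCNE1, -0.26 to 0.20 for CDC6, -0.13 to 0.15 for CDKN2B, -0.08 to 0.15 for E2F1, -0.14 to 0.18 for MYC, -0.23 to 0.07 for POLD1, -0.22 to 0.04 for RRM1, -0.26 to 0.14 for RRM2, -0.28 to 0.13 for TK1 and -0.18 to 0.06 for UHRF1. In the block without letter A they were -0.05 for CCND1, -0.19 for CCNE1, -0.06 for CDKN2B, 0.08 for MYC and 0.09 for TK1. Without B it was -0.15 for CDC6, without C it was -0.00 for CCNE1 and -0.03 for E2F1, and without D it was -0.07 for E2F1 and 0.00 for RRM1. The mean of probe sets gave -0.04 for CDC6 and -0.06 for E2F1, median centring -0.01 for E2F1, and CDKN2B was -0.00 without the shared probe sets. The cause of these turns was not tested.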
